A study of Rattus norvegicus with 6 samples.

Results

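The genes described here encode proteins of the extracellular matrix other than collagens: the small leucine-rich proteoglycans, the proteins of elastic fibres and their cross-linking enzymes, and the matricellular proteins. They were chosen by name, as 46 gene symbols; 42 of them had a row among the 17089 genes of the deposited table, and Fbln2, Tnxb, Thbs3 and Matn2 were not analysed here. The cells were neonatal rat ventricular myocytes, heart muscle cells of Sprague Dawley pups (postnatal day 1 to 3) in primary culture. All 6 cultures were plated on fibronectin in an M199-based medium and received an adenovirus on the day of isolation, either Adeno-GFP (3 libraries, called GFP) or Adeno-Tbx18-IRES-GFP (3 libraries, called Tbx18), in which a ribosome entry site places GFP behind Tbx18. Serum was at 10% for the first 2 days and at 2% from day 3, and RNA was taken on day 4 after gene transfer. Tbx18, a member of the T-box family of transcription factors, is active in the embryonic sinus venosus and epicardium, and was used in this study to turn ventricular myocytes into pacemaker-like cells. The GFP cultures are thus virus-treated controls, and neither group is a purified cell type.

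Elastic fibres are built from elastin laid onto a scaffold of fibrillin microfibrils, with fibulins and microfibril-associated proteins as bridging parts and lysyl oxidases as the enzymes that cross-link the product. Small leucine-rich proteoglycans are short core proteins, most with sugar chains, that bind collagen fibrils and growth factors and set fibril spacing. Matricellular proteins such as thrombospondins, tenascins, periostin and osteopontin are secreted into the matrix and act on cell adhesion and signalling more than as structural parts; in the heart they are known chiefly from development and from injury, and fibroblasts and other stromal cells are their usual source.

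The sequences upstream of the start site are shown for the 4 genes with the largest rises among those with a window in the RefSeq promoter table, as the stretch on which a transcription factor such as Tbx18 could act directly. Each is the 250 bases before the annotated start, 5′ to 3′ on the gene's strand, from RefSeq on build GRCr8. Capitals mark a TATAAA match on either strand; these windows held no match to the T-box core GGTGTGA, on either strand.
Comp (chr16:19089549-19089798, - strand): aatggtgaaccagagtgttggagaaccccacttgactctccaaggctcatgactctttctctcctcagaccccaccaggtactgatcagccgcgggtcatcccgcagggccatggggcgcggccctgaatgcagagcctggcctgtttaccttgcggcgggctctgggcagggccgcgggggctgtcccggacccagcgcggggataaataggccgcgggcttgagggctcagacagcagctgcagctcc
Fmod (chr13:48045317-48045566, + strand): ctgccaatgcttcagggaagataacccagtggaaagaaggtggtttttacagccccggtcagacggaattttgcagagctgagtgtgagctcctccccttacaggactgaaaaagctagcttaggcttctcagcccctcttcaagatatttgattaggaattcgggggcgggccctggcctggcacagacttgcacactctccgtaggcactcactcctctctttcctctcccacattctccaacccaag
Smoc1 (chr6:106432356-106432605, + strand): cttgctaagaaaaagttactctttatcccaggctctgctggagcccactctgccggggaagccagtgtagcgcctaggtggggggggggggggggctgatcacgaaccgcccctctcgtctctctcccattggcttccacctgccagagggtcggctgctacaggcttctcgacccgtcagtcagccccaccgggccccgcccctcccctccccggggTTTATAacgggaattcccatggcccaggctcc
Postn (chr2:140677811-140678060, + strand): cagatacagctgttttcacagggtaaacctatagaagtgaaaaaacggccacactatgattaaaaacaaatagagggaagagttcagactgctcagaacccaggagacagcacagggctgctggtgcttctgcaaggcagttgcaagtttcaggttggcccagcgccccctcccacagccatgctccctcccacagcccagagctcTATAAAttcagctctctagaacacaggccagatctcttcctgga

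The table gave such a window for 30 of the 46 genes. None of the 30 held GGTGTGA on either strand, against 1077 of 33469 windows of all RefSeq genes in the table (3.22%). At so low a share a set of 30 windows can easily hold none, so no conclusion is drawn from this. TATAAA stood in 6 of the 30 (20.0%), against 12.9% of all windows. Its first base was 44 bases before the start in Postn, 42 before it in Ecm1 and, for a match on the other strand, 32 before it in Smoc1. It was farther away in the others, at 208 in Tnc, 204 in Spp1 and, as overlapping matches on both strands, 224 and 222 in Ogn. These are exact matches of letters in 1 window per gene, variants of the letters were not searched for, and the start sites used in these cultures were not measured. The median GC content of the 30 windows was 60.8%, against 51.2% for all windows. The set of all windows, here and for GGTGTGA and TATAAA, was not limited by type of gene.

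Reads recovered from the deposited values came to 17074483 to 19800300 per library. Tbx18 was at 268 to 312 normalized counts in GFP and at 5937 to 6236 in Tbx18, so each library matched its label. Heart muscle markers were present in all libraries: the summed level of the 9 measured cardiomyocyte markers was 1309315 to 1417139 in GFP and 563368 to 582315 in Tbx18, and 7 of the 9 were called lower. Of 10 fibroblast markers outside the gene set, 6 were called higher, 0 lower and 4 not called. Of all genes tested, as described below, 22.5% were called higher and 23.5% lower. The summed level of the 10 was 238668 to 275607 in GFP and 500043 to 584851 in Tbx18. Most of this sum was Col1a1 and Col3a1, which are themselves matrix genes. Col1a1 was at a mean of 198103 in GFP and 371165 in Tbx18, and Col3a1 at 47780 and 147143. Cell type markers were measured in the same bulk RNA, in which a change in the number of cells of a type and a change in RNA per cell cannot be told apart; the part of cell composition in the results below was not tested. The labels do not say whether the 3 libraries of a group came from separate isolations, so p-values measure the spread between these libraries.

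Of the 42 genes with a row, 39 had a mean of at least 10 normalized counts and were tested. In Tbx18 26 of the 39 were called higher and 3 lower, with GFP as the reference and an adjusted p under 0.05 (limma on log2 of the normalized count plus 1, Benjamini-Hochberg adjustment over 11230 genes), and 10 were not called. Over all genes tested, 22.5% were called higher and 23.5% lower. The median log2 fold change of the 39 was 0.69, against 0.01 for all genes tested. A called rise of at least 2-fold was seen for 11 of the 39 (8.04% of all genes tested) and a called fall of that size for 1 (4.22%). Non-overlapping groups were seen for 28 of the 39 with Tbx18 higher and for 3 with Tbx18 lower, against 28.6% and 28.6% of all genes. With libraries scaled to equal recovered reads, the median of all genes moved to 0.27, with 4770 of all 11230 called higher and 1351 lower. Of the 39, 31 were then called higher and 1 lower, with a median of 0.95. The number called lower was 1 also after quantile normalization, in limma without the intensity trend and without Tbx18 replicate 1.

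**Figure D1:**
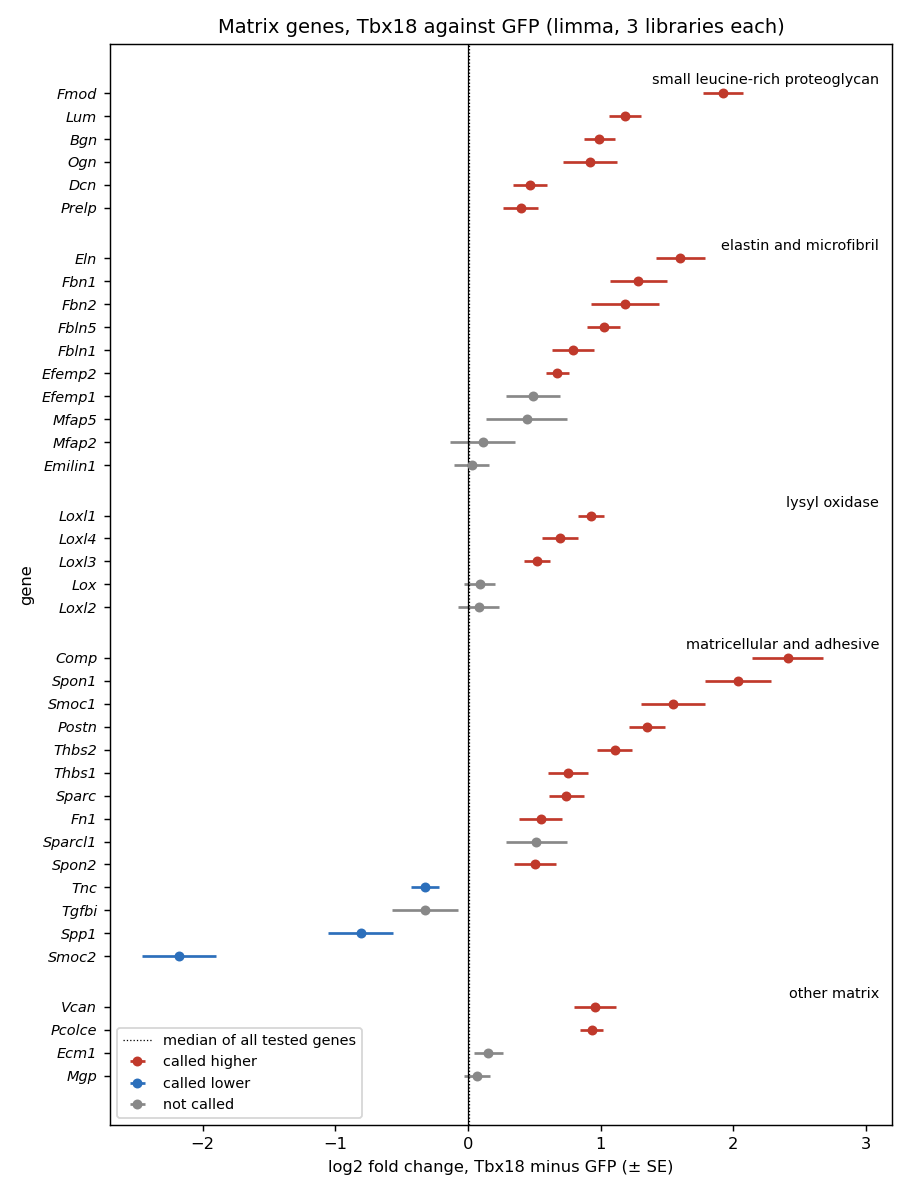
Log2 fold change of the 39 tested matrix genes, Tbx18 minus GFP, with its standard error (horizontal axis, log2 scale), grouped by class; red was called higher, blue lower and grey not called, and the dotted line is the median of all genes tested. All 6 tested proteoglycans lie to the right of 0, and Smoc2, Spp1 and Tnc are the 3 blue points.

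As a share of all recovered reads, which does not depend on the size factors, the 42 genes took 1.136 to 1.40% of a GFP library and 2.19 to 2.59% of a Tbx18 library. Fn1, Sparc and Bgn held much of this; without these 3 the share was 0.459 to 0.525% in GFP and 0.857 to 0.981% in Tbx18. The proteoglycans took 0.121 to 0.146% and 0.295 to 0.341%, and the elastin and microfibril genes 0.0649 to 0.0950% and 0.154 to 0.213%. The lysyl oxidase genes took 0.0539 to 0.0798% and 0.0915 to 0.109%. In each of these classes every Tbx18 library lay above every GFP library.

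**Figure D2:**
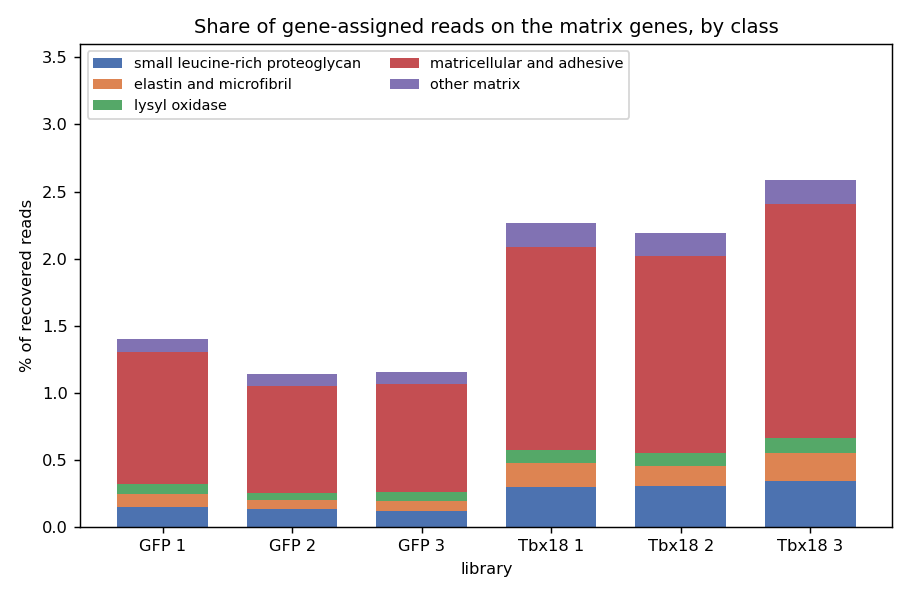
Share of each library's recovered reads that fell on the matrix genes (vertical axis, percent), stacked by class, for the 3 GFP and 3 Tbx18 libraries. The stacks reach 1.136 to 1.40% in GFP and 2.19 to 2.59% in Tbx18.

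All 6 tested small leucine-rich proteoglycan genes rose, between 1.30-fold and 3.82-fold (22.5% of all genes tested were called higher). The largest rise was that of Fmod, fibromodulin, which binds collagen fibrils and steers their cross-linking. Fmod was read at 86.2, 98.8 and 108 in GFP and 398, 323 and 399 in Tbx18 normalized counts (log2 fold change 1.92 ± 0.15 SE, adjusted p = 1.59e-05 in limma). The lowest Tbx18 library stood well above the highest GFP library. Lum, lumican, a keratan sulphate proteoglycan that regulates fibril assembly, was at 1294, 1139.9 and 1611 in GFP and 3151, 2822 and 3145 in Tbx18 (log2 fold change 1.19 ± 0.12 SE, adjusted p = 7.60e-05 in limma). Bgn, biglycan, a chondroitin or dermatan sulphate proteoglycan that can also act as a signal to immune receptors, was at 26666, 25166 and 21534 in GFP and 45079, 47368 and 53029 in Tbx18 (1.98-fold, limma adjusted p = 0.000147). For Lum and Bgn the groups stood apart, with the spread within either group small beside the gap. Ogn, osteoglycin or mimecan, rose 1.90-fold on few reads, at 40.4, 48.2 and 59.8 in GFP and 84.7, 93.2 and 104 in Tbx18 (limma adjusted p = 0.00480).

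Dcn, decorin, which binds collagen and restrains TGF-beta, rose 1.37-fold, from 1136 ± 195 to 1556 ± 134 (limma adjusted p = 0.0147), and Prelp, which anchors basement membranes to the tissue beneath, 1.30-fold, from 608 ± 108 to 793 ± 43.5 (limma adjusted p = 0.0355). Both calls were narrow: Dcn was not called without Tbx18 replicate 3 (adjusted p = 0.0670). Prelp was not called in limma without the trend, without GFP replicate 1, where its log2 fold change of 0.40 became 0.24, or without any 1 of the Tbx18 libraries (range of its adjusted p across alternatives, 0.00178 to 0.117). The ratio of Lum to Dcn counts was 1.38, 0.991 and 1.22 in GFP and 2.05, 1.97 and 1.85 in Tbx18, and that of Fmod to Prelp 0.178, 0.146 and 0.163 in GFP and 0.533, 0.404 and 0.479 in Tbx18. In both ratios each Tbx18 library exceeded each GFP library. Omd, osteomodulin, was listed at 0 in all 6 libraries and Aspn, asporin, at 1 read in a single Tbx18 library, below the level of 3 reads, which is 2.63 to 3.70 normalized counts. A row at 0 says only that no reads were assigned to that gene model: in the same table Col1a2, a major collagen gene, is listed at 12.6 ± 8.96 in GFP and 18.0 ± 8.12 in Tbx18, beside 198103 ± 18663 and 371165 ± 34640.3 for Col1a1.

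Several of these genes are neighbours in the genome. By the RefSeq annotation of GRCr8, Dcn, Lum, Kera and Epyc follow each other, Fmod lies next to Prelp and Optc, and Ogn, Omd and Aspn lie within the gene Cenpp. In the first row of genes Epyc, epiphycan, a proteoglycan of growth cartilage, was at 14.9, 8.64 and 3.45 in GFP and 78.2, 74.8 and 88.7 in Tbx18 (log2 fold change 3.21 ± 0.42 SE, adjusted p = 0.000275 in limma), while Kera, keratocan of the cornea, was at 0 in every library. Btg1, an antiproliferative gene next to Dcn on the other side, fell 2.28-fold (limma adjusted p = 0.00119). Btg2, a relative of Btg1 that stands beside Fmod, fell 3.21-fold (limma adjusted p = 0.00146). Optc, opticin, was at a mean of 3.86 in GFP and 4.94 in Tbx18 and was not tested. Btg1 and Btg2 were named after their values were seen.

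Elastin and the fibrillins rose. Eln, elastin, was read at 1425, 1459.7 and 1774 in GFP and 5368, 3335 and 5767 in Tbx18 normalized counts (3.11-fold; log2 fold change 1.60 ± 0.19 SE, adjusted p = 0.000141 in limma). All 3 Tbx18 libraries were above the GFP libraries, and Tbx18 replicate 2 was the lowest of them. Fbn1, fibrillin-1, the main microfibril protein after birth, was at 10465, 5836 and 5856 in GFP and 16872, 14819 and 20703 in Tbx18 (log2 fold change 1.28 ± 0.22 SE, adjusted p = 0.00106 in limma), with GFP replicate 1 far above the other two GFP libraries. Fbn2, the fibrillin of developing tissue, was at 411, 191 and 266 in GFP and 622, 502 and 793 in Tbx18 (log2 fold change 1.19 ± 0.26 SE, adjusted p = 0.00432 in limma). The library order was the same for both fibrillins in Tbx18, and GFP replicate 1 was again the highest control. The ratio of Fbn2 to Fbn1 counts was 0.0392, 0.0328 and 0.0454 in GFP and 0.0369, 0.0339 and 0.0383 in Tbx18, with overlapping groups and a log2 difference of -0.10.

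Of the 4 tested fibulin genes, whose proteins link elastin to microfibrils and basement membranes, 3 rose. In the whole elastin and microfibril class 6 of 10 tested genes were called higher (60.0%, against 22.5% of all genes tested) and 0 lower. Fbln5, which is required for elastic fibre assembly, was at 513, 473 and 387 in GFP and 926, 857 and 994 in Tbx18 (2.02-fold, limma adjusted p = 0.000156). Efemp2, fibulin-4, which brings lysyl oxidase to elastin, rose 1.59-fold, from 2235 ± 212 to 3555 ± 105 (limma adjusted p = 0.000267), and Fbln1 1.71-fold, from 326 ± 71.1 to 557 ± 44.9 (limma adjusted p = 0.00301). In each of these 3 fibulin genes the groups did not overlap, as for 28.6% of all genes tested with Tbx18 higher. Efemp1, fibulin-3, had groups that did not overlap either, at 61.9 ± 10.9 in GFP and 87.1 ± 11.98 in Tbx18, but was not called (limma adjusted p = 0.0730); it was called with equal recovered reads and under upper-quartile scaling.

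Neither microfibril-associated gene that was tested was called, nor was Emilin1. Mfap2, which binds fibrillin, was at 101, 72.9 and 136 in GFP and 93.9, 98.4 and 137 in Tbx18 (log2 fold change 0.11, limma adjusted p = 0.733). Its relative Mfap5 was at 88.8 ± 35.1 in GFP and 116 ± 27.6 in Tbx18 (log2 fold change 0.44, limma adjusted p = 0.269), with GFP replicate 3 the lowest library. Emilin1, an elastin-associated glycoprotein that restrains TGF-beta processing, was at 3499, 3091 and 4008 in GFP and 3391, 3137 and 4318 in Tbx18 (log2 fold change 0.03, SE 0.13; limma adjusted p = 0.880). In these 3 the groups overlapped, and the sign of Mfap2 and Emilin1 turned in some alternatives. Mfap4 was listed at 0 in every library. Mfap2 overlaps Atp13a2 in the annotation, and whether the counting used strand is not given in the sources used here; Atp13a2 was at 617 ± 127 in GFP and 642 ± 65.1 in Tbx18 and was not called.

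Of the 5 lysyl oxidase genes 3 were called, all higher (60.0%, against 22.5% higher and 23.5% lower of all genes tested). Loxl1, the enzyme tied most closely to elastin, was at 2820.1, 2258 and 2572 in GFP and 4942, 4471 and 5075 in Tbx18 (1.89-fold; log2 fold change 0.93 ± 0.10 SE, adjusted p = 8.93e-05 in limma). Loxl4 rose 1.63-fold, from 278 ± 22.6 to 453 ± 71.6, and Loxl3 1.44-fold, from 680.3 ± 33.6 to 977 ± 80.4 (limma adjusted p = 0.00255 and 0.00182). No library of one group reached into the other for these 3, as for 28.6% of all genes tested with Tbx18 higher. Lox, the founding enzyme, which acts on both collagen and elastin, was at 4346, 3350.5 and 3996 in GFP and 3705, 4036 and 4679 in Tbx18 (log2 fold change 0.09, SE 0.12; limma adjusted p = 0.568). Loxl2, which modifies basement membrane collagen, was at 7904, 5078 and 6059 in GFP and 6086, 6212 and 7629 in Tbx18 (log2 fold change 0.08, SE 0.15; limma adjusted p = 0.691). Lox and Loxl2 overlapped between the groups and changed sign without GFP replicate 2 or Tbx18 replicate 3, and Lox was called higher with equal recovered reads. Loxl1 counts divided by Lox counts gave 0.649, 0.674 and 0.644 in GFP and 1.33, 1.11 and 1.08 in Tbx18. Loxl2 over Lox gave 1.82, 1.52 and 1.52 in GFP and 1.64, 1.54 and 1.63 in Tbx18. Loxl3 overlaps Htra2 in the annotation; Htra2 was at 926 ± 188 in GFP and 874 ± 41.8 in Tbx18 and was not called.

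**Figure D3:**
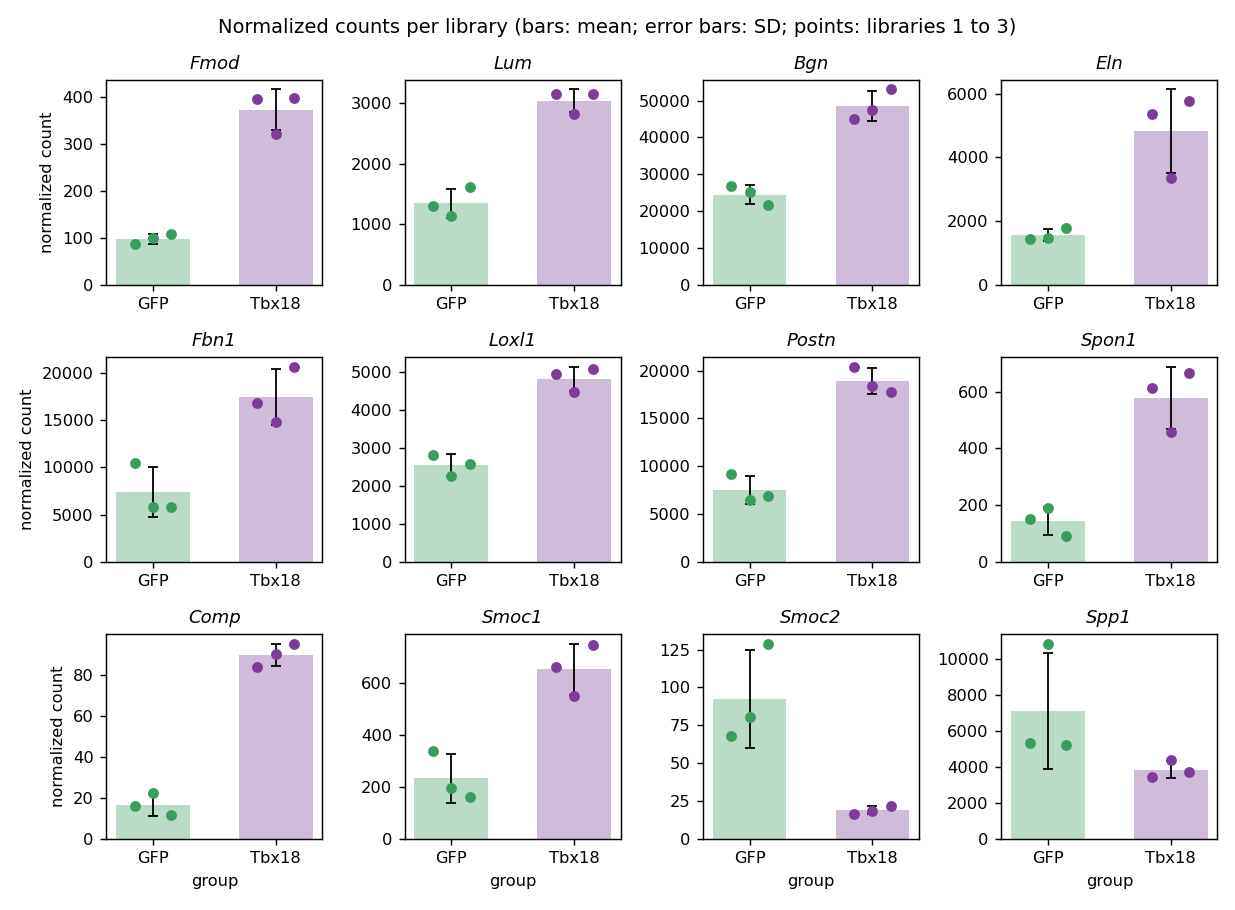
Normalized counts per library (vertical axes, starting at 0) for 12 matrix genes; bars are means of 3 libraries, error bars are SD and points are libraries. The 12 were picked from the called genes, and points of the groups do not overlap in any panel. Smoc2 and Spp1 are lower in Tbx18 and the other 10 are higher. Of all genes tested, 28.6% did not overlap with Tbx18 higher and 28.6% with Tbx18 lower.

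Of 14 tested matricellular and adhesive genes, 9 rose (64.3%, against 22.5% of all genes tested), 3 fell (21.4%, against 23.5%) and 2 were not called. Comp, the cartilage oligomeric matrix protein or thrombospondin-5, which binds collagens, was at 16.0, 22.2 and 11.5 in GFP and 83.8, 90.2 and 94.8 in Tbx18 (5.41-fold; log2 fold change 2.41 ± 0.27 SE, adjusted p = 0.000109 in limma). It went from few reads, 10 in the lowest library, to levels similar in all 3 Tbx18 libraries. Thbs2, thrombospondin-2, an inhibitor of vessel growth, was at 1453, 1113 and 1525 in GFP and 2728, 2720.3 and 3319 in Tbx18 (log2 fold change 1.11 ± 0.13 SE, adjusted p = 0.000153 in limma). Thbs1, an activator of latent TGF-beta, rose 1.66-fold, from 21635 ± 4966 to 35996 ± 2697 (limma adjusted p = 0.00293). GFP replicate 3 was the highest control for both thrombospondins. Their groups did not overlap, as for 28.6% of all genes tested with Tbx18 higher. Spon1, spondin-1 or F-spondin, a matrix protein with thrombospondin repeats, was at 152, 190.2 and 92.1 in GFP and 614, 457 and 668 in Tbx18 (4.00-fold; log2 fold change 2.04 ± 0.25 SE, adjusted p = 0.000182 in limma), while Spon2 rose 1.41-fold, from 248 ± 43.3 to 350.2 ± 48.2 (limma adjusted p = 0.0263). The Spon2 call was lost without GFP replicate 2, GFP replicate 3, Tbx18 replicate 1 or Tbx18 replicate 3 (range of its adjusted p across alternatives, 0.00428 to 0.115).

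Postn, periostin, a marker of activated fibroblasts and valve tissue, was at 9193, 6426 and 6844 in GFP and 20420.2, 18433 and 17781 in Tbx18 (log2 fold change 1.35 ± 0.13 SE, adjusted p = 5.90e-05 in limma). The lowest Tbx18 library was well above GFP replicate 1, the highest control. Sparc, osteonectin, which binds collagen and calcium, rose 1.67-fold, from 61834 ± 6838 to 103119.6 ± 9777 (limma adjusted p = 0.00150). Fn1, fibronectin, the adhesive protein that also coated the dishes, was at 81583, 58129.7 and 60288 in GFP and 89125, 89638 and 111569.98 in Tbx18 (log2 fold change 0.55, limma adjusted p = 0.0199). GFP replicate 1 was close to the lower 2 Tbx18 libraries, and the Fn1 call was lost without GFP replicate 2, GFP replicate 3 or Tbx18 replicate 3 (adjusted p = 0.0637, 0.0620 and 0.0921). Sparcl1, hevin, was at 301, 152 and 278 in GFP and 323, 374 and 309 in Tbx18 and was not called (log2 fold change 0.52, limma adjusted p = 0.0962), with GFP replicate 2 the lowest library; it was called with equal recovered reads, with sample weights and without GFP replicate 1.

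The related genes Smoc1 and Smoc2, secreted calcium-binding proteins of the Sparc family, moved in opposite directions. Smoc1, a modulator of BMP signalling, was at 337, 196 and 162 in GFP and 658, 550.2 and 746 in Tbx18 (2.81-fold; log2 fold change 1.55 ± 0.24 SE, adjusted p = 0.000680 in limma). Smoc2 was at 68.1, 80.3 and 129 in GFP and 16.6, 18.4 and 21.9 in Tbx18 (4.87-fold lower; log2 fold change -2.18 ± 0.28 SE, adjusted p = 0.000222 in limma). Neither gene had overlapping groups, against 28.6% of all genes tested with Tbx18 higher and 28.6% with Tbx18 lower. Smoc2 was the sole gene of the set with a called fall of at least 2-fold (4.22% of all genes tested). The ratio of Smoc1 to Smoc2 counts was 4.95, 2.45 and 1.26 in GFP and 39.7, 29.8 and 34.0 in Tbx18.

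The other falls were smaller and less firm. Spp1, osteopontin, a cytokine-like matrix protein made by macrophages and stressed myocytes, was at 5311, 10828 and 5199.8 in GFP and 3413, 4368 and 3728 in Tbx18 (1.85-fold lower; log2 fold change -0.81 ± 0.24 SE, adjusted p = 0.0222 in limma). GFP replicate 2 was the highest library by far, and without it the log2 fold change was -0.46 (adjusted p = 0.0112). The Spp1 call was lost after quantile normalization, with equal recovered reads, in limma without the trend, in DESeq2, and without Tbx18 replicate 1 or Tbx18 replicate 3 (range of its adjusted p across alternatives, 0.00114 to 0.0736). Macrophage markers are given beside it, 3 of 8 being called higher and 0 lower, against 22.5% and 23.5% of all genes tested. Their summed level was 841 to 1462 in GFP and 1270.3 to 1771 in Tbx18. Tnc, tenascin-C, an anti-adhesive protein of remodelling tissue, was at 11778, 10855 and 9572 in GFP and 8122, 8128 and 9464 in Tbx18 (log2 fold change -0.32, limma adjusted p = 0.0289). Its groups did not overlap, as for 28.6% of all genes tested with Tbx18 lower. The gap between the lowest GFP library and Tbx18 replicate 3 was small. The call was lost in 8 of 18 alternatives, among them upper-quartile, quantile and equal-read scaling, and without GFP replicate 1, GFP replicate 2, Tbx18 replicate 1 or Tbx18 replicate 2 (range of its adjusted p across alternatives, 0.0125 to 0.794). Tgfbi, a TGF-beta-induced relative of periostin, was at 1503, 1954 and 3574 in GFP and 1707, 1778 and 1754 in Tbx18 and was not called (log2 fold change -0.33, limma adjusted p = 0.309). Without GFP replicate 3 its log2 fold change was 0.03, and without GFP replicate 1 it was called lower, at -0.60 (adjusted p = 0.0238).

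Among the remaining genes, Vcan, versican, the large chondroitin sulphate proteoglycan of the embryonic heart, was at 5982, 3696 and 3943 in GFP and 8649, 8419 and 8784 in Tbx18 (1.90-fold; log2 fold change 0.96 ± 0.16 SE, adjusted p = 0.000959 in limma). Pcolce, which speeds the removal of the C-terminal propeptide from procollagen, was at 9269.8, 9918 and 8579 in GFP and 17779, 17457 and 17685 in Tbx18 (1.91-fold; log2 fold change 0.93 ± 0.09 SE, adjusted p = 4.05e-05 in limma). In both genes the Tbx18 libraries were close together and apart from GFP. Mgp, matrix Gla protein, an inhibitor of calcification, was at 2652 ± 172 in GFP and 2786 ± 326 in Tbx18 (limma adjusted p = 0.612), and Ecm1 at 1934 ± 299 in GFP and 2133 ± 95.9 in Tbx18 (limma adjusted p = 0.286). Neither was called, the groups overlapped, and the standard errors of their log2 fold changes were 0.10 and 0.11. With equal recovered reads both were called higher, and Ecm1 also after quantile normalization and without GFP replicate 3.

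Ratios between related genes within a library do not depend on the scaling of libraries, and 13 such ratios were formed after the values were known. For 7 of them the groups did not overlap: Smoc1 to Smoc2, Postn to Tgfbi, Spon1 to Spon2, Fmod to Prelp, Loxl1 to Lox, Lum to Dcn and Bgn to Dcn, with log2 differences from 0.52 to 3.79. With 3 libraries against 3 a two-sided exact permutation test cannot give a p below 0.1, which each of these 7 reached, and the Benjamini-Hochberg value over the 13 was 0.186. Spon1 over Spon2 was 0.522, 0.770 and 0.449 in GFP and 1.53, 1.502 and 1.93 in Tbx18. The ratios of Fbn2 to Fbn1, Loxl2 to Lox, Efemp2 to Efemp1, Sparc to Sparcl1, Fbln5 to Fbln1 and Thbs2 to Thbs1 overlapped between the groups, with log2 differences from -0.10 to 0.35.

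**Figure D4:**
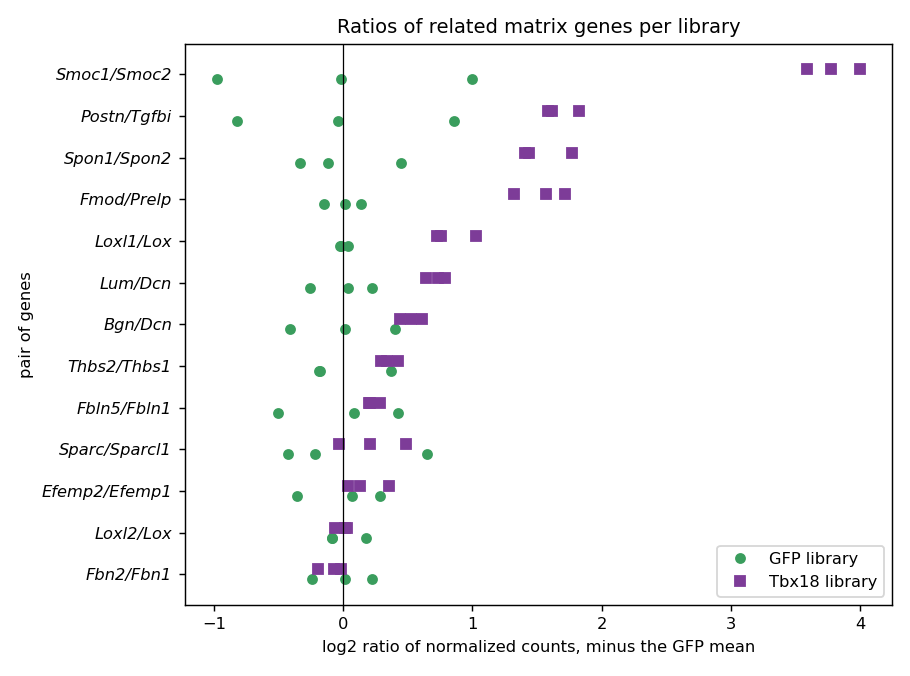
Ratios of normalized counts of related matrix genes in each library, as log2 and relative to the GFP mean (horizontal axis); circles are GFP and squares Tbx18 libraries. Smoc1 to Smoc2 lies farthest to the right, with a log2 difference of 3.79, and Fbn2 to Fbn1 and Loxl2 to Lox overlap around 0.

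The control libraries varied more than the Tbx18 libraries. The SD of the log2 values was larger in GFP for 33 of the 39 tested genes, with a median of 0.26 in GFP and 0.14 in Tbx18; over all 11230 genes it was larger in GFP for 8311, with medians of 0.17 and 0.10. In the matricellular class it was larger in GFP for all 14 tested genes. GFP replicate 1 was the highest control for 17 of the 39 genes, among them both fibrillins, Fn1, Vcan and Smoc1, and GFP replicate 3 for 15, among them Lum, Dcn, Thbs1 and Tgfbi. Within Tbx18, replicate 3 was the highest for 27 of the 39. Its median deviation from the group mean over these genes was 0.13 on the log2 scale, against -0.00370 over all genes.

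**Figure D5:**
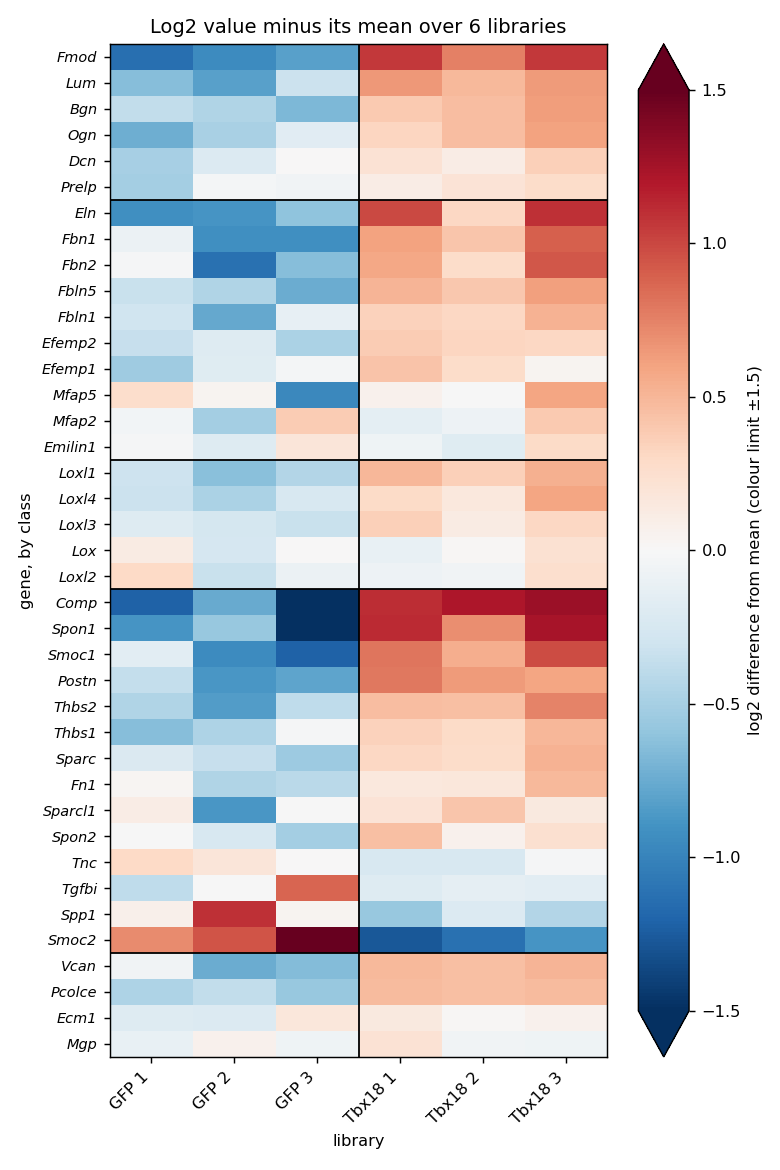
Log2 value of each of the 39 tested matrix genes (rows, by class) in each library (columns), minus its mean over the 6 libraries; red is above and blue below the mean. Most rows change from blue to red at the line between the groups, with Smoc2, Spp1, Tgfbi and Tnc among the exceptions.

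Other matrix genes were read from 7 lists, to be set beside the 22.5% higher and 23.5% lower of all genes tested. Of 19 tested relatives of the small proteoglycans and other proteoglycan genes, 10 rose and 3 fell (52.6% and 15.8%), with a median log2 fold change of 0.61. With a minimum mean of 50 in place of 10, 5 were called higher; Epyc, Hapln1, Hapln2, Prg4 and Srgn, called higher, lie below it. Spock2, testican-2, rose 2.79-fold, from 180.02 ± 31.3 to 503 ± 114 (limma adjusted p = 0.000201), and Gpc1, glypican-1, a membrane-anchored heparan sulphate proteoglycan, fell 2.23-fold, from 13316 ± 1976 to 5983 ± 236 (limma adjusted p = 5.76e-05). Of 11 further genes listed with elastic fibres and microfibrils, 6 rose and 2 fell (54.5% and 18.2%), with a median of 0.31. The 2 falls were those of Mfap1a and Mfap3l, whose part in elastic fibres was not examined here. Hmcn1, hemicentin, of the fibulin family, rose 2.78-fold (limma adjusted p = 0.000258), and Mfap3l fell 1.69-fold (limma adjusted p = 0.00121). Of 18 genes that build chondroitin and dermatan sulphate chains or hyaluronan, 7 rose and 1 fell (38.9% and 5.56%), with a median of 0.19. Chst12, a chondroitin sulphotransferase, rose 2.25-fold (limma adjusted p = 0.00186), and Csgalnact2, which starts chondroitin chains, fell 1.23-fold (limma adjusted p = 0.0222). Csgalnact2 was not called with upper-quartile scaling, with equal recovered reads or without GFP replicate 2, GFP replicate 3, Tbx18 replicate 1 or Tbx18 replicate 3 (range of its adjusted p across alternatives, 0.00796 to 0.723).

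Of 16 further matricellular and adhesive genes, 9 rose and 2 fell (56.2% and 12.5%), with a median of 0.71. The CCN family, whose members regulate growth factor signalling in the matrix, held calls in both directions: Wisp2 was at 214, 154 and 148 in GFP and 2479, 1869 and 2086 in Tbx18 (12.5-fold; log2 fold change 3.64 ± 0.16 SE, adjusted p = 1.56e-06 in limma), and Ctgf, a fibrogenic member, was at 34687, 52919 and 58113 in GFP and 22449, 21452 and 21883 in Tbx18 (2.22-fold lower, limma adjusted p = 0.000683). Wisp1 and Nov rose 3.27-fold and 2.92-fold (limma adjusted p = 2.84e-05 and 5.48e-05), and Cyr61, at 9137 ± 3587 in GFP and 6442 ± 117 in Tbx18, was not called; these 3 were named after their values were seen. Of 12 receptors of matricellular proteins, 3 rose and 3 fell (25.0% each), near the 22.5% and 23.5% of all genes tested, with a median of -0.14. Itga8, an integrin subunit that binds fibronectin and nephronectin, rose 3.40-fold, from 546 ± 77.4 to 1859.8 ± 257 (limma adjusted p = 1.38e-05), and Cd36, a receptor of thrombospondins and fatty acids, fell 1.96-fold, from 1469 ± 269.7 to 748 ± 134 (limma adjusted p = 0.000854).

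TGF-beta is a classical inducer of many matrix genes. Of 11 tested genes of its ligands, receptors, Smads and targets, 2 rose and 2 fell (18.2% each, against 22.5% and 23.5% of all genes tested), with a median log2 fold change of 0.02. Tgfb1 rose 1.48-fold, from 1278 ± 76.6 to 1892 ± 83.1 (limma adjusted p = 0.000498), and Tgfbr3, the co-receptor betaglycan, fell 2.19-fold, from 530.4 ± 161 to 242 ± 48.3 (limma adjusted p = 0.00332). Without Tbx18 replicate 1 or Tbx18 replicate 3 1 of the 11 was called higher. With equal recovered reads 5 of the 11 were, in a setting where 4770 of all 11230 genes were called higher and 1351 lower. Of 10 procollagen processing and matrix protease genes, 3 rose and 2 fell (30.0% and 20.0%), with a median of 0.43. In that list 5 were called higher with the replicate block, with upper-quartile scaling and without GFP replicate 1, and 6 higher and 1 lower with equal recovered reads. Adamts5, which cleaves aggrecan and versican, rose 3.18-fold, from 91.2 ± 8.27 to 289.7 ± 74.6 (limma adjusted p = 0.000172), and Adamts1, which also cleaves versican, fell 1.98-fold (limma adjusted p = 0.0114).

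Markers of other cell types are given beside these results, as counts and as summed normalized counts of the whole list. Of all genes tested, 22.5% were called higher and 23.5% lower. Smooth muscle markers were called higher for 5 and lower for 2 of 8 (194187 to 210272 in GFP and 158296 to 164438 in Tbx18). Des held the largest part of this sum in GFP, at 104553 ± 16723, and was called lower, at 41268 ± 3376 in Tbx18. Cnn1 was the other of the 2. Acta2, not called, and Tagln, called higher, were at means of 56794 and 29944 in GFP and 68059 and 41874 in Tbx18. Pericyte markers were called higher for 3 and lower for 1 of 6 (12148 to 16244 in GFP and 18007 to 20129 in Tbx18). Endothelial markers were called higher for 5 and lower for 1 of 8 (1488 to 2271 in GFP and 2169.6 to 2246 in Tbx18), and epicardial and mesothelial markers higher for 6 and lower for 0 of 7 (766 to 1023 in GFP and 3858 to 4575 in Tbx18). Schwann and neural markers were called higher for 2 of 3 (599 to 718 in GFP and 1220.3 to 1305 in Tbx18). The median log2 fold change of the 10 fibroblast markers was 0.83, and that of the 39 tested matrix genes 0.69. Pdgfra, a receptor of platelet-derived growth factor found on fibroblasts, was at 958, 666 and 749 in GFP and 1795, 1993 and 2194 in Tbx18, and Tcf21 at 79.8, 45.7 and 56.4 in GFP and 263, 206 and 232 in Tbx18. Gsn and Meox1, also on the fibroblast list, were not called, at log2 fold changes of -0.19 and -0.21. The part of these cells in the matrix gene results was not tested.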

How the data were processed

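RNA was measured in 3 GFP and 3 Tbx18 libraries, prepared from 100 ng RNA each by a stranded mRNA protocol and sequenced as paired 101 bp reads, per the labels' protocols. The deposited signal is a table of gene counts whose name gives it as DESeq2-normalized. That the counts were divided by 1 size factor per library was read from the whole steps described below. The submitters' processing notes list DESeq2 1.10.1, HTSeq, STAR 2.4.0g1 and bcl2fastq 2.17.1.14 but not what each did; build, annotation and strand setting: not given in the sources used here. The column headers also carry the words unpace and Control.

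Of all values, 100% were whole multiples of the smallest step of their column within 0.01, so read counts were recovered. Groups were compared with limma (version 3.58.1; R 4.3.3) on log2 of the normalized count plus 1, using an intensity trend but no block, wherever the mean of the 6 libraries reached 10. A gene was called at a Benjamini-Hochberg adjusted p under 0.05 over all 11230 tested genes. Means are given ± SD (n = 3), and folds are ratios of means. Counts are not corrected for length, so levels of different genes are not compared. Every gene of the set is named; values in every library are given for genes with a mean of at least 100 and a 2-fold change, for those that move against their class and for those that define it, and Comp, Smoc2, Mfap2 and some others were added to these after their values were seen. From each other matrix list the called genes with the highest and lowest log2 fold change among those with a mean of at least 50 are named. The genes and lists were chosen with earlier results of these data known. Alternatives were count tests on recovered reads (DESeq2 1.42.0, edgeR 4.0.16), other scalings, pseudocounts, filters and limma settings, a replicate block and leaving out each library. The fits were tested on simulated data.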

Additional observations from a re-analysis of the deposited data

How the results depend on the processing

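Of the 29 called genes of the set, 22 higher and 1 lower, Smoc2, kept their call in all 18 alternatives, and 0 of the 29 changed sign. On recovered reads edgeR called 5206 genes and DESeq2 5096, against 5164 with limma, with 26 genes of the set higher and 3 lower in edgeR and 26 and 2 in DESeq2. With equal recovered reads 4770 genes of all were higher and 1351 lower, against 2525 and 2639; of the set 31 were higher and 1 lower. The number of the set called lower, 3, was 1 after quantile normalization and 1 in limma without the trend. With upper-quartile scaling 27 were higher and 2 lower, and 61.3% of all calls were higher, against 48.9%. With 1 library left out, 22 to 26 of the set were higher and 1 to 3 lower, and 1905 to 2870 of all genes were higher and 2056 to 2967 lower. Genes not called changed sign as follows. Mfap2 was at -0.161 after quantile normalization and -0.0721 with sample weights, and Emilin1 at -0.0697 with sample weights. With 1 library left out the log2 fold change ran from -0.114 to 0.330 for Mfap2, -0.107 to 0.123 for Emilin1, -0.0162 to 0.171 for Lox and -0.0668 to 0.252 for Loxl2, the negative values being those without GFP replicate 2 or Tbx18 replicate 3. It ran from -0.598 to 0.0267 for Tgfbi, positive without GFP replicate 3, and -0.0280 to 0.118 for Mgp, negative without Tbx18 replicate 1. The cause of these changes was not tested. Among the other lists, the 10 proteoglycan genes called higher were 5 with a minimum mean of 50, which left fewer tested. With equal recovered reads 11 sulphate chain genes were higher in place of 7, and 6 procollagen and protease genes in place of 3. The single fall among chain genes was 0 or 2 in some alternatives. The 2 falls on the further elastic fibre list, Mfap1a and Mfap3l, became 1 in some alternatives. Replicate numbers were not used as pairs: deviations of same-numbered libraries correlated at -0.00474, 0.151 and 0.0165, and 2 of 3 GFP and 1 of 3 Tbx18 libraries correlated best with their own number. With the replicate block 5155 genes were called, 26 of the set higher and 3 lower as without it, and 5 procollagen and protease genes higher in place of 3. Omd, Aspn and Mfap4 had at most 1 read in any library and were not tested.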

Other observations

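Of the list of cartilage and bone markers 4 genes were tested, of which 2 were called higher and 0 lower, against 22.5% and 23.5% of all genes tested. Alpl, the tissue-nonspecific alkaline phosphatase, was at 5.32, 7.41 and 8.05 in GFP and 143, 136 and 119 in Tbx18 normalized counts (19.2-fold; log2 fold change 4.09 ± 0.25 SE, adjusted p = 6.35e-06 in limma). Col2a1, the main collagen of cartilage, was at 4.26, 2.47 and 5.75 in GFP and 32.2, 25.6 and 25.5 in Tbx18 (limma adjusted p = 0.000612). Both were low in all GFP libraries and higher in all Tbx18 libraries. Acan, aggrecan, at 1587 ± 429.6 in GFP and 2041 ± 157 in Tbx18, and Runx2, a transcription factor of bone, at 275 ± 44.6 in GFP and 324 ± 26.4 in Tbx18, were not called, Ibsp was at 0 in every library, and Sp7 and Bglap were too low to be tested. Further genes best known from cartilage or joints were picked from the other lists after their values were seen, so their direction is no evidence for a group. Matn4, a matrilin, was at 12.8, 14.8 and 10.4 in GFP and 162, 99.4 and 118 in Tbx18 (log2 fold change 3.21 ± 0.26 SE, adjusted p = 2.05e-05 in limma), and Prg4, lubricin, at 19.1, 13.6 and 16.1 in GFP and 47.9, 56.4 and 62.3 in Tbx18 (limma adjusted p = 0.000502). Hapln1, the link protein that holds aggrecan and versican to hyaluronan, was at 23.4, 22.2 and 19.6 in GFP and 52.5, 43.0 and 50.03 in Tbx18 (limma adjusted p = 0.00329). For Matn4, Prg4 and Hapln1 the groups did not overlap, as for 28.6% of all genes tested with Tbx18 higher.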
